A study of Mus musculus with 15 samples.

Results

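The 10 general pluripotency factors followed here are Pou5f1, Sox2, Sall4, Zfp281, Utf1, Dppa2, Dppa4, L1td1, Lin28a and Trim71. They were taken by gene symbol from the 24982 symbols of the count tables, and all 10 were among the 15696 genes with enough counts to be tested. The RNA-seq libraries are of polyadenylated RNA from mouse E14TG2 cells on their way from embryonic stem cells (ESCs), a model of the epiblast before implantation, to epiblast-like cells (EpiLCs), a model of the epiblast as it implants. There are 15 libraries in 5 groups of 3: Atg7 KO cells of day 2 and of day 4, control cells of day 2 and of day 4, and day 0 ESCs, which the labels also give the genotype control. ESCs grew on a layer of inactivated mouse fibroblasts with Knockout Serum Replacement (KSR), LIF, the MEK inhibitor PD0325901 and the GSK3 inhibitor CHIR99021. EpiLCs were induced on fibronectin in N2B27 medium with activin A, bFGF and KSR. The labels do not say how the knockout was made, which exons it affects, or whether the KO cells are 1 clone. No day 0 KO library was analysed here.

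These factors are called general because pluripotent cells keep them in both the naive and the primed state, unlike naive factors such as Klf4 or Tfcp2l1. OCT4, the product of Pou5f1, and SOX2 bind DNA together at composite octamer and SOX elements of their own genes and of many others, and SALL4 and ZFP281 are zinc finger proteins that work with the NuRD chromatin complex. UTF1, DPPA2 and DPPA4 are chromatin-bound proteins of pluripotent cells, of which DPPA2 and DPPA4 act as a pair. L1TD1, LIN28A and TRIM71 bind RNA, and LIN28A blocks the maturation of the let-7 microRNA.

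Totals lay between 14059237 and 23371546 counts per library, and every member had at least 719 counts in every library. Levels below are CPM, counts scaled to a common library total, and fold changes are log2 values with their standard error (SE) from edgeR's quasi-likelihood test on all 15 libraries. "Rose" and "fell" are used where the Benjamini-Hochberg adjusted p over all tested genes was under 0.05. Whether the 3 libraries of a group are separate cultures is not stated in the labels, so these p-values measure the spread between samples, which may be technical. Atg7 averaged 7.16 ± 0.349 CPM in KO against 13.6 ± 1.27 CPM in control at day 2, and 11.9 ± 1.28 CPM in KO against 19.5 ± 0.379 CPM in control at day 4 (SD, n = 3 each), so its transcript was lowered and not absent. The pluripotent cell list was detected in full in all groups, with 9 of 9 markers at 1 CPM or more.

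The ESC libraries stand apart in several ways. Hprt, which cells of the E14TG2 lineage are known to have lost, averaged 195 CPM in the ESCs and between 1.78 and 2.38 CPM in the 4 other groups. The ESC libraries therefore go against their line label, and each comparison with them below is one with the libraries labelled ESC. ESC replicate 3 also differed from the other ESC libraries, with a chi-square per degree of freedom of 31.78 and 24.22 against them, where no other pair of libraries of a group exceeded 7.005. Of 12 fibroblast markers, 12 averaged 1 CPM or more in every group but control at day 4, where 11 did. Summed, they ranged from 2303 to 4073 CPM in ESCs and from 2363 to 2615 CPM in KO against 2052 to 2230 CPM in control at day 2. At day 4 they summed to 1997 to 2063 CPM in KO against 1339 to 1463 CPM in control. The 9 pluripotent cell markers, which include Pou5f1, Sox2, Dppa4 and Utf1 themselves, summed to 4907 to 5051 CPM in KO against 4494 to 4634 CPM in control at day 2, and 3694 to 3890 CPM in KO against 3056 to 3249 CPM in control at day 4. Summed primitive endoderm markers were 178 to 197 CPM in KO against 144 to 163 CPM in control at day 2 and overlapped at day 4, and summed trophoblast markers overlapped at day 2 and were 58.9 to 62.5 CPM in KO against 70.1 to 79.3 CPM in control at day 4. Summed neural markers were 45.8 to 50.3 CPM in KO against 30.9 to 38.2 CPM in control at day 2, and 117 to 121 CPM in KO against 90.3 to 96.8 CPM in control at day 4. Summed primordial germ cell markers were 780 to 819 CPM in KO against 718 to 753 CPM in control at day 2 and overlapped at day 4. None of these markers was at 0 in all libraries of a group, and summed mesoderm markers were 3.64 to 4.49 CPM in KO against 7.78 to 10.5 CPM in control at day 2 and 8.87 to 10.3 CPM in KO against 18.2 to 26.8 CPM in control at day 4. The part of these cells in the results below was not tested, other than by adding a covariate, the collagen score, that averages the log2 CPM of 3 collagen genes. This score was 5.856 to 8.927 in ESCs. It was 6.511 to 7.492 in KO against 5.402 to 5.684 in control at day 2. At day 4 the score was 4.269 to 4.731 in KO against 2.76 to 3.019 in control.

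At day 2, Pou5f1 overlapped between KO and control libraries while other members differed in both directions. Sall4, L1td1, Sox2 and Zfp281 rose, Utf1, Dppa4, Dppa2 and Trim71 fell, and Pou5f1 and Lin28a did not pass. That is 4 risen and 4 fallen of 10 members, in a comparison in which 41.8% of all tested genes were called, 20.4% risen and 21.4% fallen. At day 4, Pou5f1, Sox2, Sall4, Utf1 and Trim71 rose, Dppa2 fell, and Dppa4, L1td1, Lin28a and Zfp281 did not pass. In that comparison 37.6% of all tested genes were called, 19.5% risen and 18.1% fallen. The median size of the KO effect on the log2 scale was 0.237 for the members and 0.288 for all tested genes at day 2, and 0.304 and 0.273 at day 4. Libraries of KO and control did not overlap for 8 of 10 members at day 2, against 61.3% of all tested genes, and for 9 of 10 at day 4, against 54.9%. Sox2, Sall4 and Dppa2 were called the same way at both days, and Utf1 and Trim71 were called in opposite directions. The test of whether the effect differed between days was passed by 5 members, 4 up and 1 down, in a test that 36.1% of all tested genes passed.

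**Figure D1:**
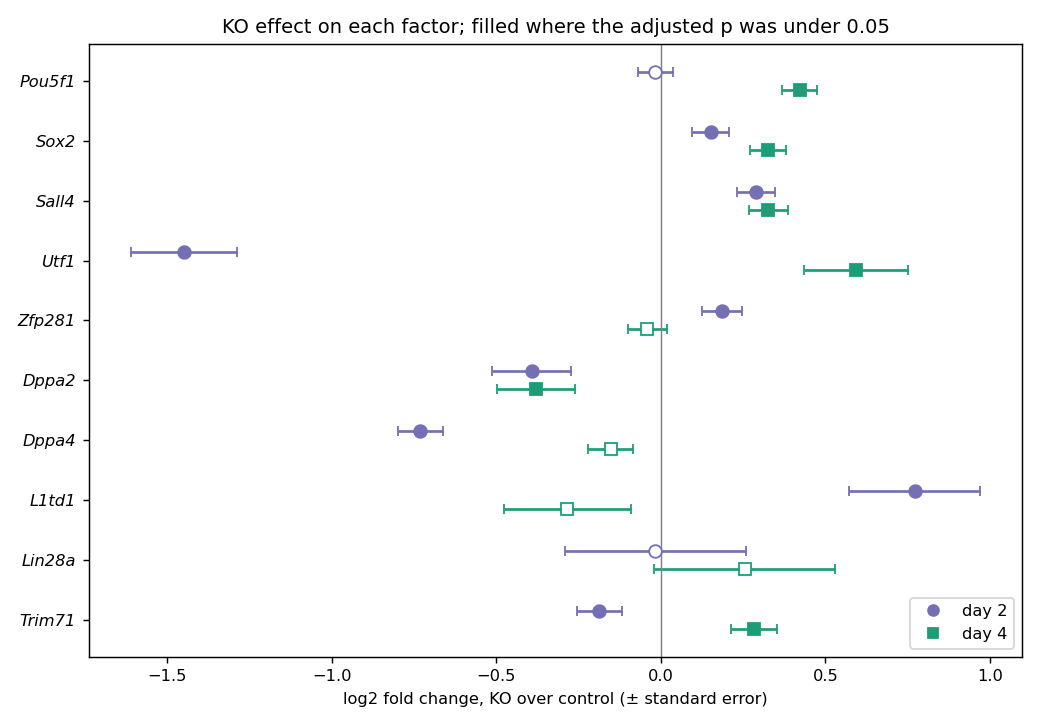
KO effect on each of the 10 members as log2 fold change of Atg7 KO over control (x axis) with its standard error, at day 2 (circles) and day 4 (squares), from edgeR on all 15 libraries; filled symbols had an adjusted p under 0.05. Utf1 lies at -1.45 at day 2 and 0.59 at day 4, on opposite sides of the zero line, while Sall4 lies at 0.29 and 0.33.

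Pou5f1 encodes OCT4, without which mouse cells leave the pluripotent state. It is found on the plus strand of chromosome 17, at 35506018 to 35510772 in GRCm38. Its level was 1098, 1068 and 1088 CPM in the ESC libraries, and at day 2 it was 819, 876 and 842 CPM in KO libraries, against 845, 910 and 814 CPM in control libraries. At day 4 it was 562, 618 and 561 CPM in KO libraries, against 415, 442 and 443 CPM in control libraries. The groups overlapped at day 2, and at day 4 every KO library lay above every control library. The KO effect was -0.02 ± 0.05 at day 2 (adjusted p = 0.82, edgeR) and 0.42 ± 0.05 at day 4 (adjusted p = 1.66e-05, edgeR), a 1.34-fold higher level. The difference between these effects, 0.44 ± 0.08, passed the test itself (adjusted p = 0.000302, edgeR). In these bulk libraries, fewer cells that express a gene and less of its RNA per cell cannot be told apart. Pou5f1 has processed copies in the genome, but the 5 symbols of such copies in the tables held at most 17 counts in any library.

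Sox2, the DNA-binding partner of OCT4, lies on chromosome 3 at 34650405 to 34652461, plus strand. It was 566, 559 and 610 CPM in ESC libraries. At day 2 it was 369, 336 and 349 CPM in KO libraries, against 313, 310 and 326 CPM in control libraries, and at day 4 it was 325, 300 and 338 CPM in KO libraries, against 264, 249 and 255 CPM in control libraries. The KO libraries lay above the control libraries at both days, by the narrower margin at day 2. Sox2 rose by 0.15 ± 0.06 at day 2 (adjusted p = 0.0365, edgeR) and by 0.32 ± 0.06 at day 4 (adjusted p = 0.000253, edgeR). The day 2 call was close to the threshold. Leaving out control replicate 1, control replicate 2, KO replicate 1 or KO replicate 3 ended it, with the effect still at 0.12 to 0.16. It held under the other alternatives, at 0.165 ± 0.043 in a fit of only the day 2 groups (adjusted p = 0.00318, edgeR). The difference between the effects, 0.17, did not pass (adjusted p = 0.095, edgeR), though it did with the collagen score as a covariate, at 0.18, and without KO replicate 2 of day 4, at 0.22.

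The sequences before the annotated starts of Pou5f1, Sox2 and Utf1 are shown because these genes departed from each other at day 2. They are the 250 bases before the RefSeq start, for Pou5f1 the more upstream of 2, in GRCm38.p6, 5′ to 3′ on the plus strand of the genome, at chr17:35505782-35506031, chr3:34649745-34649994 and chr7:139943606-139943855. Of the 10 members, 7 had an entry in the RefSeq promoter table, and Sall4, Dppa2 and Dppa4 had none. Capitals mark matches, on either strand and with overlaps allowed, to the octamer core ATGCAAA, the SOX motif AACAATG, the ZFP281 box core GGGAGGG and the GC box GGGCGG.
Pou5f1: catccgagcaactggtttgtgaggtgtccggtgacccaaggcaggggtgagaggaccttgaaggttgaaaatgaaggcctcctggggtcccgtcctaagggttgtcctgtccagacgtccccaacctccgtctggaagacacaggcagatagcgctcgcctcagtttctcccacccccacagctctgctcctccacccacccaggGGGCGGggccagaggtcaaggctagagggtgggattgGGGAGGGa
Sox2: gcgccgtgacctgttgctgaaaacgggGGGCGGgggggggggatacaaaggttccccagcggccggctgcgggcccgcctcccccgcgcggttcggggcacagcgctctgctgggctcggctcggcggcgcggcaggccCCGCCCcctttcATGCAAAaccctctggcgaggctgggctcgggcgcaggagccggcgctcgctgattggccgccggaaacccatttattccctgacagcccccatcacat
Utf1: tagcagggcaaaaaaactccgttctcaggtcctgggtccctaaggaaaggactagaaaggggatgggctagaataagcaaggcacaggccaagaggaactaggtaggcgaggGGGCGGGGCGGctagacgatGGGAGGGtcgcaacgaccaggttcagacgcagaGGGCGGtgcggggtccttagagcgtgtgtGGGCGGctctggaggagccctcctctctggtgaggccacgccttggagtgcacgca
Sox2 held 1 octamer core and 2 GC boxes in this window, Pou5f1 held 1 GC box and 1 GGGAGGG, and Utf1 held 4 GC boxes, of which 2 share a base, and 1 GGGAGGG. The window before the other Pou5f1 start, at chr17:35508557-35508806 and downstream of the first, held 1 AACAATG and no match to the other motifs. The octamer core occurred in 4.12% of 32851 promoter windows of this length, AACAATG in 3.29%, GGGAGGG in 19.7% and the GC box in 32.7%. These are matches of letters, not measured sites.

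Sall4, a zinc finger factor of ESCs, lies on chromosome 2 at 168748332 to 168767943, minus strand. It was 319, 294 and 312 CPM in ESC libraries. At day 2 it was 134, 127 and 125 CPM in KO libraries, against 105, 106 and 105 CPM in control libraries, and at day 4 it was 160, 163 and 155 CPM in KO libraries, against 129, 136 and 116 CPM in control libraries. KO libraries were higher at both days without overlap. The increase was nearly the same size at each day, 0.29 ± 0.06 at day 2 (adjusted p = 0.000902, edgeR) and 0.33 ± 0.06 at day 4 (adjusted p = 0.000347, edgeR), with a difference of 0.04 ± 0.08 (adjusted p = 0.748, edgeR).

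Zfp281, a zinc finger factor that in mouse restrains Nanog and is needed to move on to the primed state, lies on chromosome 1 at 136624901 to 136630053, plus strand. It averaged 121 ± 2.69 CPM in KO against 106 ± 1.07 CPM in control at day 2, and 163 ± 9.69 CPM in KO against 168 ± 12.9 CPM in control at day 4. The groups were apart at day 2 and overlapped at day 4. It rose by 0.18 ± 0.06 at day 2 (adjusted p = 0.0229, edgeR), a call lost in 5 of the 6 refits that each left out a library of that day (all but the one without KO replicate 2), at 0.18 to 0.19, and with the collagen score, at 0.14. At day 4 the effect was -0.04 ± 0.06 (adjusted p = 0.632, edgeR). The difference between days, -0.23 ± 0.09, stood at the threshold (adjusted p = 0.0504, edgeR) and passed it under RLE or upper quartile scaling, a stricter filter (10 CPM in 3 libraries), DESeq2, the collagen score, a fit of 13 libraries that dropped ESC replicate 3 and day 2 KO replicate 2, and only the groups compared.

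Utf1 gave the widest swing of the 10 members. It encodes a chromatin-associated protein that in mouse ESCs limits the loading of Polycomb marks at bivalent genes, and it lies on chromosome 7 at 139943789 to 139945112, plus strand. At day 2 it was 77.2, 88.1 and 86.6 CPM in KO libraries, against 242, 220 and 228 CPM in control libraries. At day 4 it was 246, 256 and 228 CPM in KO libraries, against 153, 169 and 162 CPM in control libraries. Every KO library was below every control library at day 2 and above every one at day 4. Utf1 fell by 1.45 ± 0.16 on the log2 scale at day 2 (adjusted p = 4.57e-06, edgeR) and rose by 0.59 ± 0.16 at day 4 (adjusted p = 0.00757, edgeR). The difference between the effects was 2.05 ± 0.23 (adjusted p = 6.63e-06, edgeR). The day 4 increase was 0.13 with the collagen score as a covariate and no longer passed (adjusted p = 0.281, edgeR). ESC libraries held 243, 188 and 119 CPM and overlapped both control groups.

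Dppa2 and Dppa4 are neighbours on chromosome 16, at 48303908 to 48319723 and 48283733 to 48294237, both on the plus strand and 9670 bases apart. Their proteins form a heterodimer that primes developmental promoters and, in mouse ESCs, is needed for the Dux and Zscan4 genes of the 2-cell-like state. Dppa4 was 108, 121 and 116 CPM in KO libraries at day 2, against 193, 197 and 184 CPM in control libraries. At day 4 it was 178, 166 and 163 CPM in KO libraries, against 189, 180 and 195 CPM in control libraries. The day 2 groups were far apart, and the day 4 groups were apart by a small margin. Dppa4 fell by 0.73 ± 0.07 at day 2 (adjusted p = 9.05e-07, edgeR). The day 4 effect was -0.15 ± 0.07 and did not pass (adjusted p = 0.0904, edgeR), though it passed when the fit held only the day 4 groups, at -0.16 (adjusted p = 0.0258, edgeR), and under upper quartile scaling, the stricter filter, the collagen score and 13 libraries. The difference between the effects was 0.58 ± 0.10 (adjusted p = 0.000245, edgeR).

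Dppa2 kept a similar deficit in KO at both days. It was 89.6, 77.7 and 86.2 CPM in KO libraries at day 2, against 107, 101 and 124 CPM in control libraries, and 267, 257 and 284 CPM in KO libraries at day 4, against 357, 351 and 344 CPM in control libraries. It fell by 0.39 ± 0.12 at day 2 (adjusted p = 0.0159, edgeR) and by 0.38 ± 0.12 at day 4 (adjusted p = 0.0181, edgeR), and the difference was 0.01 ± 0.17 (adjusted p = 0.961, edgeR). The groups did not overlap at either day. The day 2 call was lost without control replicate 3 or KO replicate 2, at -0.30 and -0.34, and the day 4 call without control replicate 1 or KO replicate 1 or 2, at -0.37 to -0.35. In fits of only the groups compared, both calls held. The effect there was -0.38 ± 0.07 at day 2 (adjusted p = 0.000134, edgeR) and -0.38 ± 0.05 at day 4 (adjusted p = 3.44e-05, edgeR).

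The pair did not keep a fixed ratio. Dppa2 counts per Dppa4 count were 0.715, 0.701 and 0.548 in ESC libraries, 0.828, 0.639 and 0.745 in KO against 0.555, 0.513 and 0.677 in control at day 2, and 1.51, 1.55 and 1.73 in KO against 1.89, 1.95 and 1.77 in control at day 4. The ratio was above 1 in all 6 day 4 libraries and below 1 in the 9 others. KO and control overlapped at day 2, and at day 4 every KO library was below every control library.

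**Figure D2:**
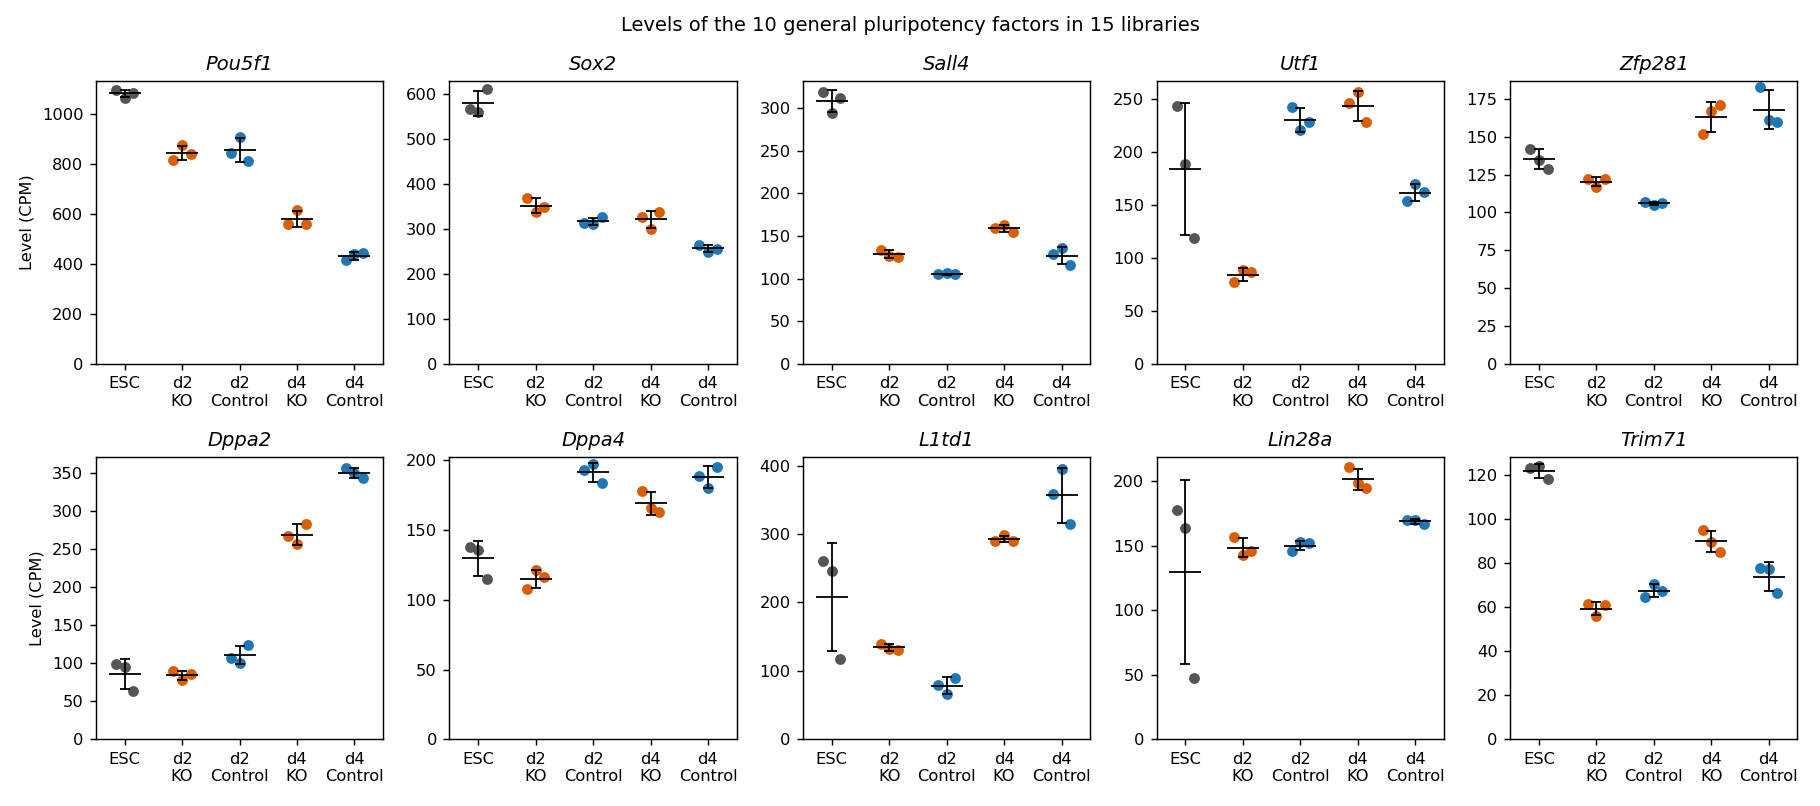
Level of each of the 10 members in CPM (y axes, from 0) in ESC, Atg7 KO and control libraries at day 2 (d2) and day 4 (d4). Points are the 3 libraries of a group, the long bar is their mean and the whiskers are its SD; at day 4 the mean of Dppa2 is 270 CPM for KO libraries and 351 CPM for control libraries, above all its earlier groups, and ESC replicate 3 is the low point of Lin28a at 47.4 CPM.

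L1td1 encodes an RNA-binding protein that derives from the LINE-1 retrotransposon and lies on chromosome 4 at 98726734 to 98738480, plus strand. At day 2 it was 140, 132 and 131 CPM in KO libraries, against 80.1, 65.9 and 90.0 CPM in control libraries. At day 4 it was 290, 298 and 290 CPM in KO libraries, against 359, 395 and 315 CPM in control libraries. KO libraries were all higher at day 2 and all lower at day 4. It rose by 0.77 ± 0.20 at day 2 (adjusted p = 0.00553, edgeR), and at day 4 the effect was -0.28 ± 0.19 (adjusted p = 0.268, edgeR). The difference between the effects was -1.06 ± 0.28 (adjusted p = 0.00724, edgeR). With the collagen score as a covariate the day 2 effect was 0.33 and did not pass (adjusted p = 0.0727, edgeR), while the day 4 effect was -0.79 and did.

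The SE of each member in the fit of all libraries includes the spread of the ESC group. For Utf1 at day 2 it was 0.16, against 0.05 in a fit of only the day 2 groups. ESC libraries held 261, 246 and 118 CPM of L1td1 and 178, 164 and 47.4 CPM of Lin28a, with replicate 3 the low one for both. In a fit of only the day 4 groups, L1td1 was lower in KO at -0.29 ± 0.07 (adjusted p = 0.00315, edgeR) and Lin28a was higher in KO at 0.25 ± 0.05 (adjusted p = 0.000796, edgeR). The effect sizes were almost those of the fit of all libraries, and only the SE differed.

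Lin28a, the let-7 blocker, lies on chromosome 4 at 134003330 to 134018841, minus strand. It was 157, 143 and 146 CPM in KO libraries at day 2, against 146, 153 and 152 CPM in control libraries, and 211, 199 and 195 CPM in KO libraries at day 4, against 170, 170 and 167 CPM in control libraries. The groups overlapped at day 2, and KO was above control at day 4. In the fit of all libraries the effect was -0.02 ± 0.27 at day 2 (adjusted p = 0.967, edgeR) and 0.25 ± 0.28 at day 4 (adjusted p = 0.499, edgeR). With the collagen score as a covariate the KO effect on Lin28a was negative at both days. It was -0.74 at day 2 (adjusted p = 0.00115, edgeR) and, with its sign turned, -0.59 at day 4 (adjusted p = 0.0118, edgeR). Within groups the score spread most in the ESC libraries, at 8.927, 7.983 and 5.856. Replicate 3 was the lowest of them in both the score and Lin28a, so these adjusted values may rest largely on the ESC group.

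Trim71, an RNA-binding ubiquitin ligase and the mammalian counterpart of the worm let-7 target lin-41, lies on chromosome 9 at 114507133 to 114564369, minus strand. It was 61.4, 56.0 and 60.8 CPM in KO libraries at day 2, against 64.7, 70.5 and 67.6 CPM in control libraries. At day 4 it was 94.9, 89.5 and 85.2 CPM in KO libraries, against 77.9, 77.5 and 66.3 CPM in control libraries. KO was the lower group at day 2 and the higher group at day 4, without overlap. Trim71 fell by 0.19 ± 0.07 at day 2 (adjusted p = 0.0383, edgeR) and rose by 0.28 ± 0.07 at day 4 (adjusted p = 0.00398, edgeR), a difference of 0.47 ± 0.10 (adjusted p = 0.00139, edgeR). The day 2 call is the weak side of this pair: it was lost in 5 of the 6 refits that each left out a day 2 library (all but the one without control replicate 1), at -0.21 to -0.15, and also without a filter on low counts, with the collagen score and with 13 libraries.

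The let-7 sites of the members are shown because LIN28A, TRIM71 and their target pathway are tied through this microRNA. Mature let-7g, encoded on chromosome 9 at chr9:106178846-106178867, plus strand, in RefSeq GRCm38.p6, has its seed (bases 2 to 8) in capitals. Below it are the stretches of 29 bases of the GENCODE M21 3′ untranslated regions that end with the seed match, in capitals, and the base after it.
mmu-let-7g-5p: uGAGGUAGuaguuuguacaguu
Lin28a chr4:134005189-134005217: tggagtgcacagcctgttgaaCTACCTCa
Lin28a chr4:134004551-134004579: tgctttgagatcgccacaaacCTACCTCa
Trim71 chr9:114512472-114512500: aagtacaacattgcctaagtcCTACCTCa
Trim71 chr9:114512376-114512404: ctgtgaagtgataatttctatCTACCTCa
Trim71 chr9:114509047-114509075: attttgtttagtatggattttCTACCTCa
Trim71 chr9:114509021-114509049: tcaattttggcaaaaagttgtCTACCTCa
Sall4 chr2:168748940-168748968: gatgtgagggctttaatttatCTACCTCa
All 7 sites are read on the minus strand of GRCm38, 5′ to 3′ along the transcript. Lin28a held 2 matches, Trim71 held 4, of which 2 lie side by side, Sall4 held 1, and the 7 other members held none in their annotated 3′ untranslated regions. The level of mature let-7 was not measured by these libraries. Of the 3 members with sites, Sall4 rose, Trim71 fell and Lin28a did not pass at day 2. At day 4 all 3 were higher in KO than in control without overlap, and Sall4 and Trim71 passed in the fit of all libraries. Pou5f1, Sox2 and Utf1, which held no match, were also higher in KO at day 4 without overlap. Of all tested genes, 54.9% did not overlap at that day, in either direction.

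Relating each member to Pou5f1 in the same library gives a comparison that does not depend on how libraries are scaled. Counts of Utf1 were 9.43%, 10.1% and 10.3% of Pou5f1 counts in KO libraries at day 2, against 28.7%, 24.2% and 28.0% in control libraries. At day 4 they were 43.7%, 41.5% and 40.6% in KO libraries, against 36.9%, 38.3% and 36.6% in control libraries. So the order of KO and control turned round between the days on this scale too. L1td1 was 17.0%, 15.1% and 15.5% of Pou5f1 counts in KO libraries at day 2, against 9.49%, 7.24% and 11.1% in control libraries, and 51.5%, 48.1% and 51.7% in KO libraries at day 4, against 86.4%, 89.4% and 71.1% in control libraries.

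At day 4, where Pou5f1 itself was higher in KO, 6 of the other 9 members were apart between KO and control in their ratio to it, where 69% of all other tested genes were. Dppa2 averaged 46.4% of Pou5f1 in KO against 80.9% in control, Dppa4 29.2% against 43.4%, and Zfp281 28.1% against 38.7%. The log2 difference of KO minus control was -0.80 for Dppa2, -0.70 for L1td1, -0.57 for Dppa4, -0.46 for Zfp281, -0.17 for Lin28a and 0.17 for Utf1, each with a two-sided exact permutation p of 0.1. With 3 libraries against 3 that is the smallest p this test allows, so none could pass 0.05, and it was 0.15 after adjustment over the 9 members. Sox2, Sall4 and Trim71 overlapped between the groups in this ratio, at -0.10, -0.09 and -0.14, although each had risen in its level. Against Sox2 counts, Dppa2, Dppa4, L1td1 and Zfp281 were apart at day 4 and Utf1 and Lin28a overlapped, 4 of 9 members where 61.1% of all other tested genes were apart. At day 2 the ratios of 7 of the 9 members were apart, Utf1 by -1.44, L1td1 by 0.80 and Dppa4 by -0.72, again at the exact permutation floor, where 55.8% of all other tested genes were apart. Against Sox2 counts 7 of 9 were apart at day 2, where 61.4% of all other tested genes were.

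**Figure D3:**
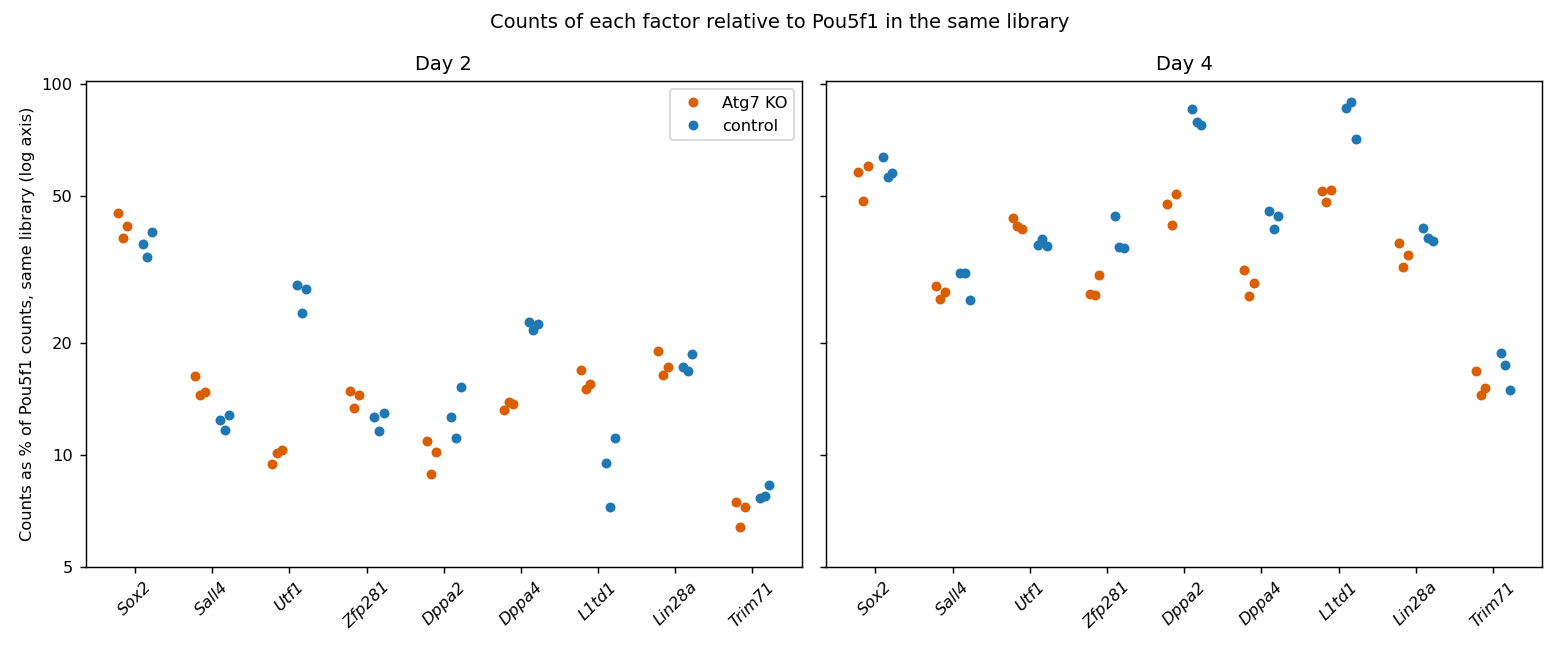
Counts of each other member as a percentage of Pou5f1 counts in the same library (y axis, log scale), at day 2 (left) and day 4 (right), in Atg7 KO and control libraries, 1 point per library. Utf1 lies near 10% in KO and at 24.2% to 28.7% in control at day 2; at day 4 Dppa2 and L1td1 lie higher in control than in KO.

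From the libraries labelled ESC to control cells of day 2 and day 4, the members divided. The first step also spans the Hprt difference given above, and may not be within the same line of cells. Pou5f1 and Sox2 went down at each step. Pou5f1 fell by 0.34 ± 0.05 at day 2 against ESCs and by a further 0.98 ± 0.05 at day 4 against day 2, and Sox2 fell by 0.87 ± 0.06 and 0.31 ± 0.06 (edgeR adjusted p at most 0.000126). Sall4 and L1td1 dipped at day 2: Sall4 fell by 1.55 ± 0.06 and then rose by 0.27 ± 0.06, and L1td1 fell by 1.40 ± 0.20 and then rose by 2.18 ± 0.20. Zfp281 fell by 0.35 ± 0.06 and then rose by 0.66 ± 0.06, and at day 4 it was above ESCs by 0.31 ± 0.06, while Sall4 was below them, at -1.28 ± 0.06. Trim71 fell by 0.85 ± 0.07 and then did not pass, at 0.13 ± 0.07. Dppa4 rose by 0.56 ± 0.07 and then held, at -0.02 ± 0.07, whereas Dppa2 rose by 0.37 ± 0.12 and then by 1.66 ± 0.12, to 4.08 times its ESC level at day 4. The day 2 rise of Dppa2 was lost without control replicate 3 and in a fit of only the groups compared.

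Counted over the members, 2 rose and 6 fell at day 2 against ESCs, where 70.5% of all tested genes were called, 35.6% risen and 34.9% fallen. At day 4 against day 2, 4 rose and 3 fell, where 68.4% were called, 33.9% risen and 34.6% fallen. At day 4 against ESCs, 4 rose and 4 fell, where 71.7% were called, 36.2% risen and 35.6% fallen. Utf1 and Lin28a did not pass against ESCs at either day in control. For both, single ESC libraries decide the call. Without ESC replicate 3, Lin28a was lower in control at day 2 than in ESCs, at -0.18 (adjusted p = 0.00531, edgeR) in place of 0.21, and Utf1 was lower at day 4, at -0.41 (adjusted p = 9.04e-05, edgeR) in place of -0.18. Without ESC replicate 1, Utf1 was higher in control at day 2, at 0.58 (adjusted p = 0.000602, edgeR) in place of 0.33, and Lin28a was higher at day 4, at 0.68 (adjusted p = 0.0395, edgeR) in place of 0.38. The day 2 value of Utf1 also passed under upper quartile scaling, without a filter and with the stricter filter, at 0.35 to 0.38, and with the collagen score as a covariate both genes were higher in control than in ESCs at both days, at 0.99 to 3.08.

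In KO libraries the second step ran upward for most members. The 401 tested genes of chromosome 18, which holds no member, had a median KO effect of 0.563 at day 2 and 0.0143 at day 4. The labels do not say whether the KO cells are 1 clone, and the part of this shift in the step was not tested. At day 4 against day 2 in KO, 7 of 10 rose and 2 fell, where 63.2% of all tested genes were called, 31.2% risen and 32% fallen. Utf1 rose by 1.53 ± 0.16, where in control it fell by 0.51 ± 0.16, a control value that turned to 0.28 with the collagen score. Trim71 rose by 0.60 ± 0.07 and Dppa4 by 0.55 ± 0.07, neither of which passed in control, at 0.13 and -0.02. The control value of Trim71 did pass under RLE or upper quartile scaling, with the stricter filter and without control replicate 3 of day 4, at 0.17 to 0.20, and that of Dppa4 passed with the collagen score, at 0.24. In KO Dppa2 rose by 1.67 ± 0.12, close to its control value. L1td1 rose by 1.12 ± 0.20, less than in control, and Pou5f1 fell by 0.54 ± 0.05, less than in control. The tests of these differences between KO and control are those of the KO effect between the days given above. Sox2 fell by 0.13 ± 0.06 with overlapping libraries (adjusted p = 0.0464, edgeR), a call lost without KO replicate 1 or 3 of day 2 or KO replicate 1 or 2 of day 4, at -0.14 to -0.09, and under RLE or upper quartile scaling and with DESeq2. At day 2 against ESCs, KO had 0 risen and 8 fallen members, where 65.3% of all tested genes were called, 33.2% risen and 32.1% fallen. Of these, Dppa4, Zfp281 and L1td1 each lost the call under several alternatives, and without ESC replicate 1 all 3 did.

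**Figure D4:**
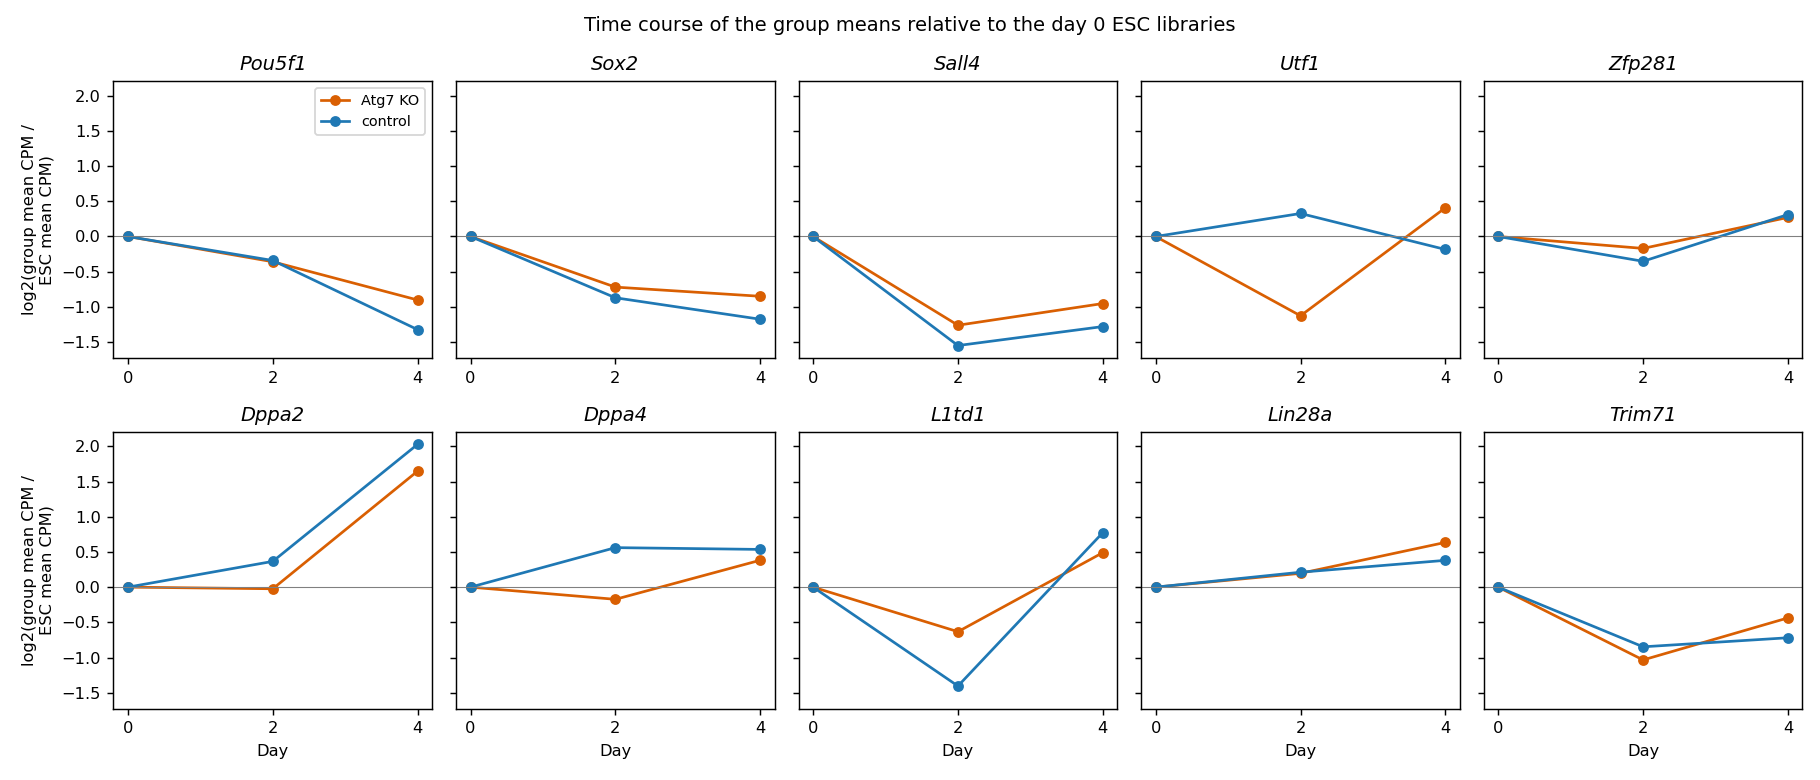
Group means of each member as log2 of the mean CPM over the mean CPM of the ESC libraries (y axis) by day (x axis), for Atg7 KO and control. Both lines start from the same 3 ESC libraries, whose Hprt level goes against their line label, since no day 0 KO library was analysed here. Each point is a mean of 3 libraries. The lines of Utf1 and L1td1 cross between day 2 and day 4, and the Pou5f1 lines part after day 2.

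Per kilobase of annotated exon, Pou5f1 was the most abundant member and Trim71 the least in all 5 groups. Pou5f1 averaged 376 ± 12.6 CPM per kb in KO against 381 ± 21.8 CPM per kb in control at day 2, and 258 ± 14.5 CPM per kb in KO against 193 ± 7.02 CPM per kb in control at day 4. The members between them changed places. At day 2, Utf1 stood behind Dppa4 in KO at 68.5 ± 4.81 CPM per kb, overlapping it, and directly behind Pou5f1 in control at 188 ± 8.96 CPM per kb. At day 4, Dppa2 was 110 ± 5.4 CPM per kb in KO, where Pou5f1, Utf1 and Sox2 lay above it, against 143 ± 2.63 CPM per kb in control, where only Pou5f1 lay above it. Dppa2 and Dppa4 overlapped in KO at day 4, and in control at day 4 the overlapping neighbours were Utf1 with Sox2 and Dppa4 with L1td1.

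The members did not share a profile over the 15 libraries. As the root mean square difference of log2 CPM, each gene centred on its own mean, Sall4 and Trim71 were the closest pair at 0.257, followed by Pou5f1 and Sox2 at 0.277, and Pou5f1 and Dppa2 the farthest at 1.34. Among 10884 genes with a mean of at least 5 CPM, Wdr75 at 0.0556 and Nupl1 at 0.074 were nearest to Zfp281, and Echs1 at 0.0728 and Fanca at 0.0751 to Pou5f1. Utf1 had no such close neighbour, with Naf1 nearest at 0.333. Sfmbt2 at 0.199 and Eomes at 0.215 were nearest to Dppa2. The libraries compared share their groups and depth, and these distances are a description.

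Genes linked to the members were counted from lists compiled with earlier results of these data known. For comparison, 20.4% of all tested genes rose and 21.4% fell in KO at day 2, and 19.5% rose and 18.1% fell at day 4. Of 10 genes known to carry OCT-SOX elements, 6 rose and 1 fell in KO at day 2, with a median log2 change of 0.418. At day 4, 8 rose and none fell, with a median of 0.681. The median over all tested genes was -0.0149 at day 2 and -0.0105 at day 4. Fbxo15, 1 of the 6, lies on chromosome 18, and its KO effect was 0.86 ± 0.08 at day 2 and -0.01 ± 0.08 at day 4. The 401 tested genes of that chromosome had a median KO effect of 0.563 at day 2 and 0.0143 at day 4. The part of this shift in the count was not tested. Spp1, which encodes osteopontin, averaged 727 ± 28.1 CPM in KO against 244 ± 3.18 CPM in control at day 2 and 414 ± 39.2 CPM in KO against 132 ± 8.31 CPM in control at day 4. Fgf4, a growth factor of the epiblast, averaged 109 ± 4.64 CPM in KO against 60.0 ± 1.15 CPM in control at day 4, an increase of 0.87 ± 0.08. Tdgf1, a NODAL co-receptor, was the 1 that fell at day 2, by 0.55 ± 0.15. Nanog, the homeodomain partner of these factors, rose by 1.13 ± 0.10 at day 2 and 0.72 ± 0.10 at day 4, and Pou5f1 did not pass at day 2.

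Of 9 tested genes for factors that bind the Pou5f1 gene, 2 rose and 2 fell at day 2, where 20.4% and 21.4% of all tested genes did. At day 4, 4 rose and 1 fell, where 19.5% and 18.1% of all tested genes did. Nr6a1, which encodes the repressor GCNF, fell at both days, by 0.55 ± 0.06 and 0.63 ± 0.06, and averaged 141 ± 2.86 CPM in KO against 205 ± 15.3 CPM in control at day 2. Nr5a2, which encodes the activator LRH-1, rose at both days, by 0.70 ± 0.09 and 0.48 ± 0.09.

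Most of the listed genes that depend on DPPA2 and DPPA4 in mouse ESCs fell in KO. Of 16 symbols listed, among which Duxf3 is another name of Dux, 13 were tested. At day 2, 11 fell and none rose in KO, with a median of -1.96, where 21.4% of all tested genes fell. At day 4, 12 fell and none rose, with a median of -2.83, where 18.1% of all tested genes fell. In control, 12 of the 13 rose at day 4 against day 2, with a median of 3.06, where 33.9% of all tested genes rose. Nkx2-5 fell there, by 0.87 ± 0.35. Mael, a germline gene of the piRNA pathway, averaged 50.9 ± 3.28 CPM in KO against 88.6 ± 2.67 CPM in control at day 2, and Syce1, a synaptonemal complex gene, 9.86 ± 1.17 CPM in KO against 16.7 ± 1.73 CPM in control. Zscan4d, one of a cluster of 2-cell-like genes, fell by 2.77 ± 0.30 at day 4. Most of this list consists of Dux, Zscan4, Tcstv and Zfp352 genes, several of which have near-identical copies. Counts of single copies are therefore uncertain, and the 13 genes are not independent.

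In the LIN28 and let-7 pathway, 18 of 20 listed symbols were in the count tables, and all 18 were tested. Zcchc11 and Zcchc6, which were not, are earlier symbols of the listed Tut4 and Tut7. In KO 7 rose and 2 fell at day 2, where 20.4% and 21.4% of all tested genes did. At day 4, 12 rose and 1 fell, where 19.5% and 18.1% of all tested genes did. Mycn and Ccnd1, both let-7 targets, rose at day 2 by 1.00 ± 0.12 and 0.89 ± 0.10, while Cdc25a, a phosphatase also targeted by let-7, fell by 0.52 ± 0.06. At day 4, Ago2, the slicer Argonaute, averaged 278 ± 12.1 CPM in KO against 137 ± 18.1 CPM in control, and Drosha, the nuclear microRNA processor, 312 ± 8.88 CPM in KO against 219 ± 10.6 CPM in control. Arid3a was the 1 that fell there, by 0.80 ± 0.11. Lin28b, the paralog of Lin28a, rose at day 4 to 32.5 ± 1.46 CPM in KO, against 25.3 ± 2.59 CPM in control.

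NuRD subunits, the partners of SALL4 and ZFP281, were called mainly lower in KO at day 2 and mainly higher at day 4. Of 15 genes, 1 rose and 7 fell in KO at day 2, where 20.4% and 21.4% of all tested genes did. At day 4, 10 rose and 2 fell, where 19.5% and 18.1% of all tested genes did. The test of the difference between days called 11 up and 2 down, where 18.6% and 17.6% of all tested genes were. Chd4, the main ATPase of the complex, averaged 494 ± 7.99 CPM in KO against 684 ± 28.6 CPM in control at day 2, and 1024 ± 26.8 CPM in KO against 871 ± 37.7 CPM in control at day 4. Mbd2, the 1 that rose at day 2, lies on chromosome 18. The 401 tested genes of that chromosome had a median KO effect of 0.563 at day 2 and 0.0143 at day 4. No member lies on chromosome 18, and the part of this shift in the differences between days was not tested. Mta1 and Mbd3 rose at day 4 by 0.82 ± 0.09 and 0.77 ± 0.10.

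Of 13 partners and targets of ZFP281, 4 rose and 3 fell at day 2, where 20.4% and 21.4% of all tested genes did. At day 4, 11 rose and 1 fell, where 19.5% and 18.1% of all tested genes did. Tet1, a 5-methylcytosine oxidase, averaged 639 ± 15.7 CPM in KO against 357 ± 47.3 CPM in control at day 4. Dnmt3l, a cofactor of the de novo DNA methyltransferases, fell at both days, to 95.1 ± 4.09 CPM in KO against 306 ± 9.23 CPM in control at day 2 and 299 ± 21.5 CPM in KO against 505 ± 78.9 CPM in control at day 4.

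Among 17 other general pluripotency genes, 3 rose and 6 fell in KO at day 2, where 20.4% and 21.4% of all tested genes did. At day 4, 9 rose and 1 fell, where 19.5% and 18.1% of all tested genes did. Mybl2, a cell cycle regulator, averaged 604 ± 7.17 CPM in KO against 322 ± 5.21 CPM in control at day 4, and Trim28, a corepressor of retrotransposons, 1458 ± 22.4 CPM in KO against 855 ± 25.9 CPM in control. Epcam, an adhesion molecule, fell at both days, by 0.97 ± 0.10 and 0.66 ± 0.10. Of 16 genes related to the members by family or by name, 4 rose and 5 fell at day 2 and 5 rose and 4 fell at day 4. The same shares of all tested genes stand beside these counts. Sall3, 1 of the 4 that rose at day 2, lies on chromosome 18, whose shift at day 2 is given above. Sall1 rose at day 4 to 142 ± 5.89 CPM in KO, against 69.6 ± 7.61 CPM in control, and Pou3f1, an epiblast and neural POU factor, fell at day 2 to 2.07 ± 0.291 CPM in KO, against 6.35 ± 0.8 CPM in control. Dppa3, counted among these for its name and not for its family, fell at day 4 to 4.37 ± 0.921 CPM in KO, against 39.2 ± 5.79 CPM in control.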

How the data were processed

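Polyadenylated RNA was sequenced in 15 libraries of mouse cells labelled E14TG2, grouped by their titles into 5 groups of 3. The authors deposited raw read counts by gene symbol for each library. The submitters' processing notes name STAR, featureCounts, StringTie, DESeq2, mm10 and GRCm38. Their versions and settings, the annotation and the strandedness are not given in sources used here. Without strand, reads of antisense genes cannot be told apart: exons of Gm19553, Gm14261, Gm13061 and C130032M10Rik overlap 14.1% of Pou5f1, 9.5% of Sall4, 5.86% of Lin28a and 1.45% of Trim71 on the opposite strand.

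The test was edgeR's quasi-likelihood F test (edgeR 4.0.16, R 4.3.3). filterByExpr over the 5 groups (minimum count 10, minimum total 15) kept 15696 genes and removed 9286. Scaling was by TMM, and the 5 group means were fitted together over all libraries. Benjamini-Hochberg adjustment ran over all tested genes, with a threshold of 0.05. CPM use TMM-scaled library sizes, and CPM per kb divide by the union of GENCODE M21 exons on GRCm38. Ratios to Pou5f1 were compared by an exact two-sided permutation test. The members, lists, tests and alternatives were chosen with earlier results of these data known. Genes named are the members, Atg7, Hprt and Nanog, up to 2 risen and 2 fallen genes of each list with the smallest p, and the 2 nearest profiles of a member; Lin28b and the further values of named genes were chosen after their values were seen. Promoters and let-7g are from RefSeq (GRCm38.p6). The procedure was tested on simulated data in which every gene had the same spread and no library stood apart. That simulation cannot show how the procedure does with the spread seen here. Alternatives were DESeq2 1.42.0, scaling by RLE or upper quartile, a filter of 10 CPM in 3 libraries or none, fits of the compared groups alone, a replicate block, a covariate averaging log2 CPM over 3 collagen genes (the collagen score), 13 libraries, and each library left out.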

Additional observations from a re-analysis of the deposited data

Results flagged for a closer look

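The KO effect differed between day 4 and day 2 for 5 of the 10 members in the test of the difference itself (edgeR, Benjamini-Hochberg over all tested genes), in which 36.1% of all tested genes were called. As day 4 minus day 2 on the log2 scale, the difference was 2.05 for Utf1, 0.578 for Dppa4, 0.469 for Trim71, 0.439 for Pou5f1 and -1.06 for L1td1. Utf1 and Trim71 were lower in KO at day 2 and higher at day 4. Dppa4 was lower in KO at day 2 and its day 4 effect did not pass. Pou5f1 overlapped between KO and control at day 2 and was higher in KO at day 4, and L1td1 was higher in KO at day 2 and below control in each library at day 4. All 5 calls held under each alternative tried, the collagen score as a covariate included, and without each of the 12 day 2 and day 4 libraries in turn. The median KO effect over chromosome 18, which holds no member, was 0.563 at day 2 and 0.0143 at day 4. The part of that shift in these differences was not tested.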

How the results depend on the processing

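Of 80 values (10 members in 8 comparisons), 59 were called, and 46 of these kept their call under every alternative and without each library in turn. The number of member calls that changed was 3 under RLE, 7 under upper quartile scaling, 4 without a filter, 6 with the stricter filter, 2 with DESeq2, 10 with only the groups compared, 11 with 13 libraries (ESC replicate 3 and day 2 KO replicate 2 left out) and 20 with the collagen score, which varies almost with the groups. For KO against control at day 4, 1 member had fallen, and 2 had under upper quartile scaling and the stricter filter, 3 with only the groups compared and with 13 libraries, and 4 with the collagen score. For the difference between days 1 was called lower, and 2 under RLE, upper quartile scaling, the stricter filter, DESeq2, only the groups compared, the collagen score and 13 libraries. For KO day 4 against KO day 2, 2 had fallen, and 1 under RLE, upper quartile scaling and DESeq2. For control day 2 against ESC, 2 had risen, and 1 with only the groups compared and 4 with the collagen score. The collagen score also gave 2 in place of 4 risen for KO against control at day 2, 7 in place of 4 for control day 4 against day 2, 1 in place of 0 for KO day 2 against ESC, and 7099 in place of 11257 genes called for control day 4 against ESC. The causes were not tested.

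Signs turned as follows. With the collagen score, Lin28a in KO against control at day 4 was -0.59, Utf1 and Dppa4 in control day 4 against day 2 were 0.28 and 0.24, and Utf1 in control day 4 against ESC was 1.27. Lin28a against ESC was -0.18 in control at day 2 with 13 libraries, and -0.17 in KO at day 2. With an ESC library left out it ranged from -0.18 without replicate 3 to 0.51 without replicate 1 in control at day 2, and from -0.20 to 0.49 in KO at day 2.

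Leaving out each library in turn gave 2 to 4 risen and 2 to 4 fallen members for KO against control at day 2, 0 to 1 fallen at day 4, 1 to 2 fallen for the difference between days and for KO day 4 against KO day 2, 1 to 3 risen for control day 2 against ESC, and 5 to 10 fallen for KO day 2 against ESC. Of 124 ratios to Pou5f1 recomputed without a library or against Sox2, 11 moved by over 1 SD and 4 changed sign.

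The labels do not say whether the replicate numbers pair the samples. Deviations from the group means correlated at -0.041 to 0.0516 between same-numbered libraries, so no shared replicate effect was seen. With the replicate number as a block, 0 of the 80 member calls changed, with 4 risen and 4 fallen members at day 2 and 5 risen and 1 fallen at day 4, and 6393 and 5759 genes called in all.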
